A study of Mus musculus with 8 samples.

Results

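The genes described here are 9 components and regulators of the complement system other than C1q: *C3*, *C4b*, *Cfb*, *Cfp*, *Serping1*, *C3ar1*, *C5ar1*, *Cd55* and *Cd59a*. They were chosen by name, and each was found in the symbol column of the deposited table by 1 probe set, out of 22206 probe sets in all. Total RNA was measured on Clariom S Mouse arrays, and it came from the gastrocnemius (GAS) of male wild-type C57/Bl6j mice. The mice were injected at about 10 weeks of age and were 22 weeks old at collection, 12 weeks after the injection. In the MYTHO-KD group (4 arrays), an adeno-associated virus (AAV) of serotype 1 drove a short hairpin RNA against *Mytho* from the U6 promoter, and in the scramble group (4 arrays) a virus of the same kind with a scramble hairpin went into the opposite leg. Both groups therefore carried AAV and a hairpin, and U6 is active in most cell types that the virus enters. No uninjected muscle was part of the comparison.

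Complement is a cascade of plasma proteins made largely in liver and also by macrophages, fibroblasts and other cells within tissues. The classical, lectin and alternative pathways each build an enzyme that cleaves C3, after which C5 is cleaved and the terminal components form a pore in the target membrane. The small fragments released on the way attract and activate leukocytes through the receptors C3AR1 and C5AR1, while soluble and membrane-bound regulators stop the cascade on the body's own cells. In injured muscle, complement proteins are known on necrotic fibres, and macrophages are a local source of C1q.

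None of the 9 genes differed by 2-fold between MYTHO-KD and scramble muscles. A difference at an unadjusted p under 0.05 was found for 3 genes: the fluid-phase inhibitor gene *Serping1* was 1.58-fold higher in MYTHO-KD, the properdin gene *Cfp* 1.48-fold higher and the C3a receptor gene *C3ar1* 1.41-fold higher. The central components *C3* and *C4b*, the protease gene *Cfb*, the C5a receptor gene *C5ar1* and the membrane regulators *Cd55* and *Cd59a* gave no such difference. No gene of the 9 had an adjusted p under 0.05, and the lowest was 0.288 in limma's moderated test, adjusted after Benjamini and Hochberg over the whole table. The study's own limits, 2-fold with an unadjusted p under 0.05, were passed by 0 of the 9 genes and by 1.12% of all probe sets. An unadjusted p under 0.05 was reached by 3 of the 9, or 33.3%, all higher in MYTHO-KD, beside 12% of all probe sets in either direction and 6.48% in the higher direction. None of the 9 was lower with such a p, beside 5.52% of all probe sets. Whatever the p, 6 of the 9 were higher in MYTHO-KD, beside 46.9% of all probe sets. An adjusted p under 0.05 was reached by 0.275% of all probe sets. The median difference of the 9 genes was 0.24 (log2), beside -0.01 over all probe sets. These counts and medians are a description, since the genes were chosen with results of these arrays known.

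The table analysed gives an average and a standard deviation (SD) of the log2 signal for each group, made by the authors' software, and single arrays were not analysed here. The averages over all probe sets ran from 3.18 to 19.93 (log2). Differences are given as MYTHO-KD less scramble. Its interval is the 95% confidence interval of limma's moderated test, which takes the variance of each probe set from both groups and draws it toward the variance typical of the array. The test treats the legs as unpaired. The hairpin's target, listed as *D230025D16Rik*, averaged 7.71 in MYTHO-KD and 10.02 in scramble, so that 20.2% of the scramble signal was left (log2 difference -2.31, standard error 0.304, adjusted p = 0.0138, limma). The muscle genes *Acta1* and *Myh4* stood at 19.93, the top of the scale, in both groups. In whole muscle RNA, a change in the number of cells that make a transcript and a change in the RNA made per cell cannot be told apart.

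**Figure D1:**
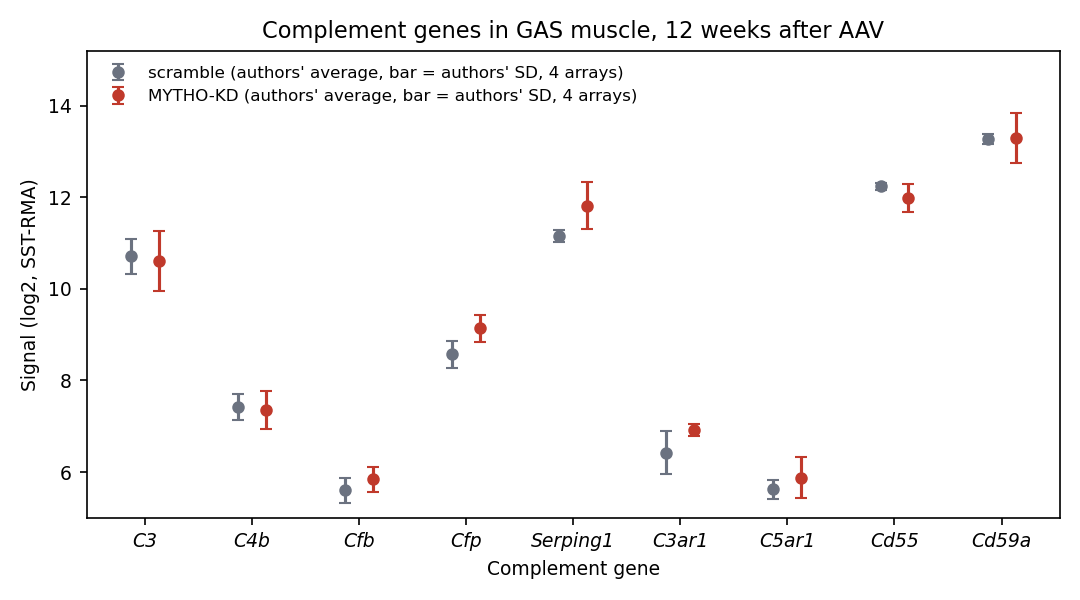
Authors' average signal (log2, vertical axis) of the 9 complement genes in scramble (grey) and MYTHO-KD (red) GAS muscles, with the authors' SD over 4 arrays as bars. *Serping1*, *Cfp* and *C3ar1* sit higher in MYTHO-KD by 0.66, 0.57 and 0.50, and *C3*, *C4b* and *Cd59a* lie within 0.10 of the scramble average; levels of different genes cannot be compared, since each probe set has its own brightness.

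*C3*, the component on which all pathways converge, lies on chromosome 17 from 57203970 to 57228136 (mm10, minus strand). The authors' average for it was 10.61 (SD 0.65) in MYTHO-KD and 10.71 (SD 0.38) in scramble. The groups lay closer together than either SD, at a difference of -0.10 (95% interval -0.76 to 0.56, unadjusted p = 0.747, limma). On the linear scale the interval runs from 0.59-fold to 1.47-fold. A change of 2-fold in either direction lies outside it, while the smaller changes within it remain compatible with these arrays. *C4b*, which forms part of the C3-cleaving enzyme of the classical and lectin pathways, lies on the same chromosome from 34728380 to 34743897. It averaged 7.35 (SD 0.41) in MYTHO-KD and 7.42 (SD 0.28) in scramble, a difference of -0.07 (interval -0.56 to 0.42, unadjusted p = 0.762, limma). Its near copy *C4a*, known as the sex-limited protein gene, had averages of 4.69 and 4.44 and was not marked as expressed in scramble muscles. Transcripts of *C4a* and *C4b* are so alike that their probes may not separate them, and both values are uncertain in that respect.

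The alternative pathway genes were measured by *Cfb*, *Cfp* and, among the genes outside the 9, *Cfd*. *Cfp* encodes properdin, which holds the C3-cleaving enzyme of this pathway together and is made by leukocytes. It lies on chromosome X from 20925454 to 20931555. It averaged 9.14 in MYTHO-KD and 8.57 in scramble, and the SD was 0.29 in both groups. The difference of 0.57 was larger than that SD (standard error 0.203, interval 0.13 to 1.01, unadjusted p = 0.0160, adjusted p = 0.289, limma). *Cfp* kept an unadjusted p under 0.05 in the 6 other settings of the test, where it lay between 0.0158 and 0.0320. These settings reuse the same averages and SDs, so they are not independent checks. *Cfb* encodes the protease subunit of the same enzyme and lies on chromosome 17 from 34856374 to 34862518, next to *C2*. It averaged 5.84 in MYTHO-KD and 5.60 in scramble with an SD of 0.28 in both, a difference of 0.24 that did not pass the test (interval -0.20 to 0.68, unadjusted p = 0.252, limma). *Cfd*, which encodes adipsin, the protease that cleaves factor B and a product of fat cells, averaged 7.25 (SD 1.64) in MYTHO-KD and 8.03 (SD 2.03) in scramble. These SDs were the widest of all complement genes examined, and its difference of -0.78 had an interval from -2.83 to 1.27. The fat cell gene *Adipoq* had SDs of 2.13 and 2.22 beside it. Of 7 adipocyte markers, 1 was higher in MYTHO-KD, beside 46.9% of all probe sets, and 6 were lower. None of these markers passed the test (widest difference -0.75 for *Retn*). Their part in the value of *Cfd* was not tested.

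*Serping1* encodes the C1 inhibitor, a serine protease inhibitor that stops the proteases of the classical and lectin pathways. It lies on chromosome 2 from 84765360 to 84775444. It averaged 11.82 in MYTHO-KD and 11.16 in scramble, and it had the widest difference of the 9 genes (0.66, standard error 0.234, interval 0.15 to 1.17, unadjusted p = 0.0158, adjusted p = 0.288, limma). The SD was 0.51 in MYTHO-KD and 0.13 in scramble, so the arrays of the knockdown group were spread more widely than those of the control group. With unequal variances in the groups, *Serping1* no longer passed (unadjusted p = 0.0775). At a limit of 1.5-fold in place of 2-fold, *Serping1* was the 1 gene of the 9 that passed together with an unadjusted p under 0.05, beside 5.80% of all probe sets.

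Of the receptors for the released fragments, 1 passed. *C3ar1*, the receptor for C3a on myeloid cells, lies on chromosome 6 from 122847138 to 122856161 and averaged 6.92 in MYTHO-KD and 6.42 in scramble. Here the control group was the more variable, with an SD of 0.47 against 0.14 in MYTHO-KD. Its difference of 0.50 had an interval from 0.01 to 0.99 and an unadjusted p of 0.0460 (adjusted p = 0.408, limma), and the unadjusted p was 0.0876 without moderation and 0.120 with unequal variances. *C5ar1*, the main receptor for C5a on neutrophils and macrophages, lies on chromosome 7 from 16246743 to 16259540. It averaged 5.88 (SD 0.45) in MYTHO-KD and 5.62 (SD 0.20) in scramble, a difference of 0.26 that did not pass the test (interval -0.23 to 0.75, unadjusted p = 0.271, limma). *C5ar2*, the second C5a receptor gene and its neighbour on that chromosome, averaged 5.46 and 5.55 (difference -0.09, unadjusted p = 0.651, limma).

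The membrane regulators of the host cell gave no difference past the test. *Cd55* encodes decay-accelerating factor, which takes apart the C3-cleaving enzymes on cell surfaces, and lies on chromosome 1 from 130439027 to 130462744. It averaged 11.98 (SD 0.30) in MYTHO-KD and 12.24 (SD 0.08) in scramble, the most negative difference of the 9 genes at -0.26 (interval -0.65 to 0.13, unadjusted p = 0.173, limma). *Cd59a* encodes a lipid-anchored protein that blocks the last step of pore formation, and lies on chromosome 2 from 104095801 to 104115410. It averaged 13.29 in MYTHO-KD and 13.27 in scramble, a difference of 0.02 with an interval from -0.51 to 0.55 (unadjusted p = 0.936, limma). The group averages of *Cd59a* were nearly equal, while the SD was 0.55 in MYTHO-KD and 0.11 in scramble. Each of these genes has a neighbouring copy on its chromosome, and neither copy passed the test: *Cd55b* had a difference of -0.14 and *Cd59b* one of -0.22. Probes of such copies may bind both transcripts.

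Spread among the arrays differed between the groups for several of the 9 genes. The SD was larger in MYTHO-KD for 6 of them (*C3*, *C4b*, *Serping1*, *C5ar1*, *Cd55* and *Cd59a*), equal for *Cfb* and *Cfp*, and smaller for *C3ar1*, beside 48.1% of all probe sets with a larger SD in MYTHO-KD. The median SD of the 9 genes was 0.41 in MYTHO-KD and 0.28 in scramble, against 0.27 in either group over all probe sets. No test of the spread was made. Of 4 values, none can lie further than 1.5 SDs from their plain mean. By this bound, and if the deposited averages are plain means, the arrays of the groups could be placed apart for none of the 9 genes. This bound alone does not settle whether their groups overlap. Over all probe sets, 2.24% could be placed apart in this way.

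The rest of the pathway was measured by 51 further genes listed by role, and each was found in the table. Of these 51, 9 had an unadjusted p under 0.05 (17.6%, beside 12% of all probe sets), 8 of them higher in MYTHO-KD and 1 lower. Their median difference was 0.03 (log2). None had an adjusted p under 0.05 in the test as reported. The C1q genes, whose products form the recognition molecule of the classical pathway, were all higher in MYTHO-KD, and *C1qb* had the widest difference of the list. It averaged 7.70 in MYTHO-KD and 6.43 in scramble, a difference of 1.27 (interval 0.70 to 1.84, unadjusted p = 0.000391, adjusted p = 0.0754, limma). *C1qb* was the 1 complement gene at 2-fold with an unadjusted p under 0.05, and its adjusted p was 0.0358 when the variance was moderated with a trend and robust fitting together, and ran from 0.0358 to 0.503 over the 7 settings. *C1qc* differed by 0.73 (unadjusted p = 0.0166, limma), and *C1qa* by 0.66 without passing (unadjusted p = 0.0634, limma). Whether the differences of the C1q genes exceed those of the 9 genes was not tested, since values of single arrays would be needed.

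Among the proteases that C1q and the lectins activate, *C1s1* (0.56, unadjusted p = 0.0487, limma) and *Masp2* (0.71, unadjusted p = 0.00996, limma) were higher in MYTHO-KD, while 6 other classical pathway genes, *C1ra*, *C1rb*, *C1rl*, *C1s2*, *C2* and *C4a*, did not pass. *C1s1* lost the call without moderation (unadjusted p = 0.110), with unequal variances (0.111) and without dim probe sets (0.0517), while *Masp2* kept it in all 7 settings. *Masp2* was the 1 gene of 8 in the lectin pathway list that passed (12.5%, beside 12% of all probe sets). It averaged 6.3 in MYTHO-KD and 5.59 in scramble, where the limit for the mean signal of dim probe sets was 5.715. *Mbl1*, a mannose-binding lectin, had a difference of -0.42 in the same list (unadjusted p = 0.106, limma). None of the 7 terminal pathway genes passed, and *C7*, which anchors the forming pore, had the widest difference among them at -0.55 (interval -1.31 to 0.21). Among the fluid-phase regulators, *Clu*, which encodes clusterin, had a difference of -0.45 (unadjusted p = 0.179, limma).

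Of the 9 further membrane regulators, *Thbd*, which encodes thrombomodulin of the vessel wall, was higher by 0.65 (unadjusted p = 0.0134, limma) and *Cd46* was lower by a difference of -0.73 (8.0 against 8.73, unadjusted p = 0.00685, limma). CD46 helps to cut C3b and C4b, and in the mouse it is known mainly from sperm. *Cr1l*, which encodes Crry, the broadly expressed regulator of mouse cells, averaged 12.49 and 12.43 with the narrow interval of -0.26 to 0.38. Among the receptors, *Cd93* of endothelial and myeloid cells was higher by 0.69 (8.55 against 7.86, SDs 0.24 and 0.09, unadjusted p = 0.00149, adjusted p = 0.125, limma). *Itgam*, a subunit of complement receptor 3, was higher by 0.49 (unadjusted p = 0.0468, limma). *Itgb2*, the other subunit of that receptor, had a difference of -0.08 (unadjusted p = 0.671, limma). *C1qb* and *Cd93* were the complement genes whose arrays could be placed apart by the bound on 4 values.

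**Figure D2:**
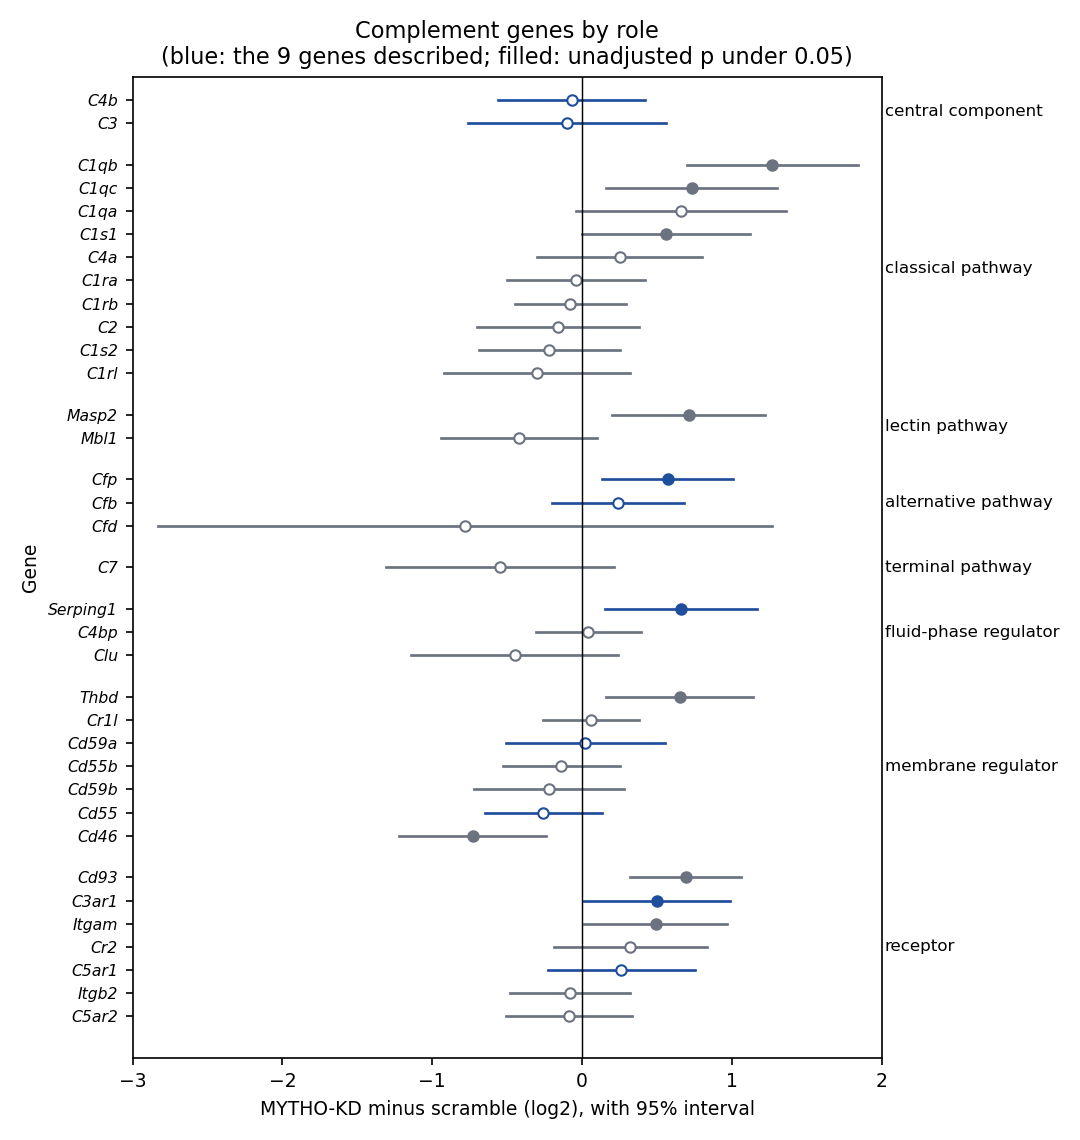
Difference between MYTHO-KD and scramble (log2, horizontal axis) with its 95% interval for 35 complement genes grouped by role, the 9 genes described first in blue and 26 others named in the text in grey, with filled points at an unadjusted p under 0.05. Filled points lie to the right of 0 except that of *Cd46*, the terminal pathway has none, and *Cfd* has the widest interval.

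Genes that lie side by side did not share one pattern. The regulators on chromosome 1 held a lower *Cd46*, and *Cd55*, *Cd55b*, *C4bp*, *Cr1l* and *Cr2* with no difference past the test. In the complement cluster of chromosome 17, none of *C4b*, *C4a*, *Cfb* and *C2* passed, and the widest difference there was 0.25, that of *C4a*. On chromosome 6, *C1s1* passed while *C1ra*, *C1rb*, *C1rl* and *C1s2* near it had differences between -0.30 and -0.04.

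Lists of markers of cell types that make or bear complement were read on the same arrays. Over all probe sets, 46.9% were higher in MYTHO-KD and 12% had an unadjusted p under 0.05 in either direction. Of 12 macrophage markers, 10 were higher in MYTHO-KD and 5 had an unadjusted p under 0.05 (*Cd68*, *Csf1r*, *Cd163*, *Lyz2* and *Itgam*), and the mean of the list's averages was 7.63 in MYTHO-KD and 7.01 in scramble. *Cd68*, a lysosomal protein gene of phagocytes, averaged 9.43 against 6.90, and *Lyz2*, the lysozyme gene of myeloid cells, averaged 11.11 against 9.17. Not all defining markers followed, since *Ptprc*, the pan-leukocyte gene, averaged 7.67 and 7.69 and *Fcgr1* 6.73 and 6.67. Of 8 neutrophil markers, 4 were higher and none passed, with list means of 5.49 in MYTHO-KD and 5.57 in scramble. The widest difference was that of *Ly6g* (-0.42), and *S100a8* was not marked as expressed in MYTHO-KD. Lymphocyte markers were higher for 1 of 8 genes, and none passed (list means 5.33 and 5.51). All 10 fibroblast markers were higher and 4 passed, with list means of 10.36 and 9.68, and the widest difference was that of *Lum* (1.49). All 8 endothelial markers were higher and 2 passed (list means 10.53 and 10.12), led by *Kdr* (0.75). The part of these cell types in the values of *Serping1*, *Cfp* and *C3ar1* was not tested.

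Liver makes most plasma complement. Of 12 liver genes, 9 had a higher average in MYTHO-KD, beside 46.9% of all probe sets, with list means of 6.36 and 5.88. Of the same 12 genes, 1 had an unadjusted p under 0.05 (8.33%, beside 12% of all probe sets). *Alb* averaged 10.98 (SD 2.28) in MYTHO-KD and 8.32 (SD 1.34) in scramble, and it was this 1 gene (difference 2.66, adjusted p = 0.291, limma). The difference of *C3*, which cells within tissues make as well as liver, was -0.10 on the same arrays. Its relation to *Alb* was not tested. Of 6 blood genes, 5 were higher, beside 46.9% of all probe sets, and 2 passed (33.3%, list means 11.55 and 11.24), led by *Hbb-bs* (0.55). Of 9 skeletal muscle genes 1 passed (*Myh1*, 0.59), or 11.1%, which is near the 12% of all probe sets. Their part in the complement values was not tested.

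**Figure D3:**
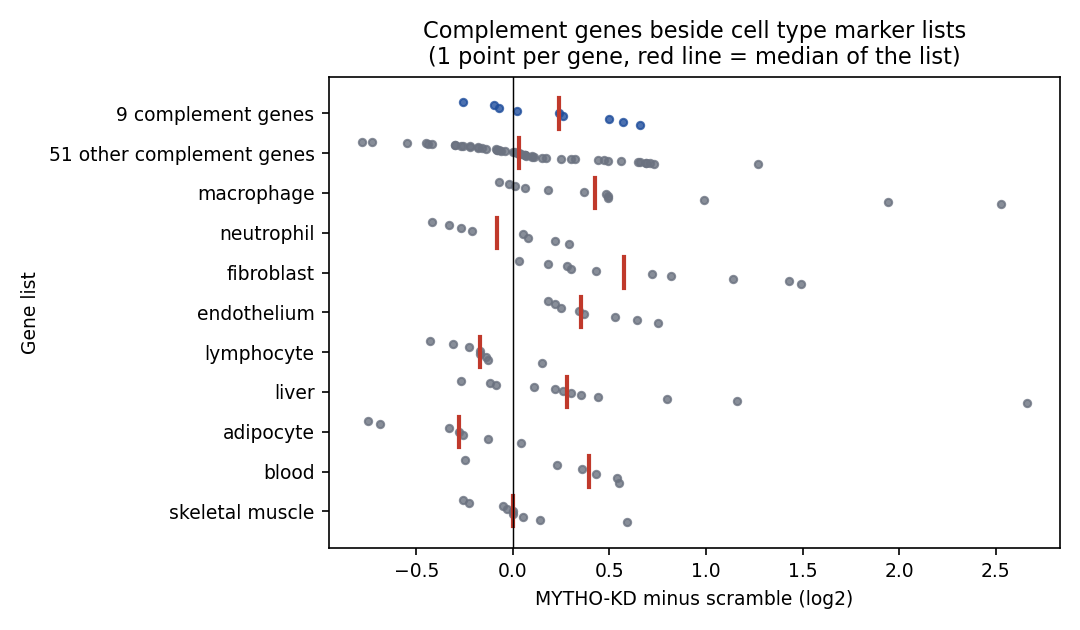
Difference between MYTHO-KD and scramble (log2, horizontal axis) for each gene (point) of the 9 complement genes, the 51 other complement genes and 9 lists of cell type markers, with the median of each list as a red line. The 9 genes have a median of 0.24. Higher medians are those of the fibroblast (0.575), macrophage (0.425), blood (0.395), endothelial (0.355) and liver (0.28) lists, and the remaining lists have lower ones. No gene of the 9 reaches the differences of *Cd68* (2.53), *Lyz2* (1.94) or *Alb* (2.66).

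The promoters of *Cfp* and *C3ar1*, which were higher in MYTHO-KD, and of *C3*, which was not, are shown so that the sequences before these genes can be read beside their values. They were taken from a set of promoter sequences from RefSeq on GRCm38.p6, the assembly of mm10. The set used had an entry for 6 of the 9 genes and none for *Serping1*, *C4b* and *Cfb*. Each sequence shown holds the 250 bases before the annotated start, 5′ to 3′ on the gene's strand, in lower case, with motif matches in capitals.
C3ar1, chr6:122856158-122856407, minus strand: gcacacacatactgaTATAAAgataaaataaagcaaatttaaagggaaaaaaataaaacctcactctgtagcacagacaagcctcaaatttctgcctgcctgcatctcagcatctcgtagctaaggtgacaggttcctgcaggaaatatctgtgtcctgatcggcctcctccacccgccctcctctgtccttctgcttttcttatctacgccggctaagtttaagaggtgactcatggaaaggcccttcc
Cfp, chrX:20931556-20931805, minus strand: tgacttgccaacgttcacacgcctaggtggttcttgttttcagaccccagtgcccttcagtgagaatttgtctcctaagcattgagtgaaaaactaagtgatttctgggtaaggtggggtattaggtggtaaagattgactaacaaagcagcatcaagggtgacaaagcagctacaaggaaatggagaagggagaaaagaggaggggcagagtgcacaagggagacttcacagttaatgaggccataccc
C3, chr17:57228137-57228386, minus strand: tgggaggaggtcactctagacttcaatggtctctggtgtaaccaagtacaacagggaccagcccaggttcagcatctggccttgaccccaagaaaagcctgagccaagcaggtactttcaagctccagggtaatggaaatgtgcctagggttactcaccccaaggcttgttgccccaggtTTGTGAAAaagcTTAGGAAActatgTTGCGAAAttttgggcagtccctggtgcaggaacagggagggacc

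Motifs were searched for on both strands, with overlaps allowed: TTCNNNGAA of STAT factors, GAGGAA of PU.1, TTNNGNAA of C/EBP and TATAAA of the TATA box. In the 250 bases before *Cfp* no match to any of these letters was found. *C3ar1* had 1 match, to TATAAA from 235 to 230 bases before the start, far from where a TATA box acts, and 12.4% of 32851 windows of the same length held these letters. *C3* had 3 matches to the C/EBP letters between 70 and 38 bases before the start, and 36.8% of all windows held at least 1. *C5ar1* had 1 match to the C/EBP letters and *Cd59a* 1 to the PU.1 letters, which 23.3% of all windows held, while *Cd55* had none. The STAT letters, held by 7.02% of all windows, were in none of the 6. The motifs were chosen with the values known, and a match of letters is a description, not a binding site.

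For *Serping1* and *C3ar1* the side of the 0.05 limit depended on how the variance was treated. Of the 3 genes with an unadjusted p under 0.05, *Cfp* stayed under it in all 7 settings, *Serping1* in 6 and *C3ar1* in 5. *C3*, *C4b*, *Cfb*, *C5ar1*, *Cd55* and *Cd59a* stayed above it in all 7, with the lowest p of the 6 genes at 0.145 for *Cd55*.

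**Figure D4:**
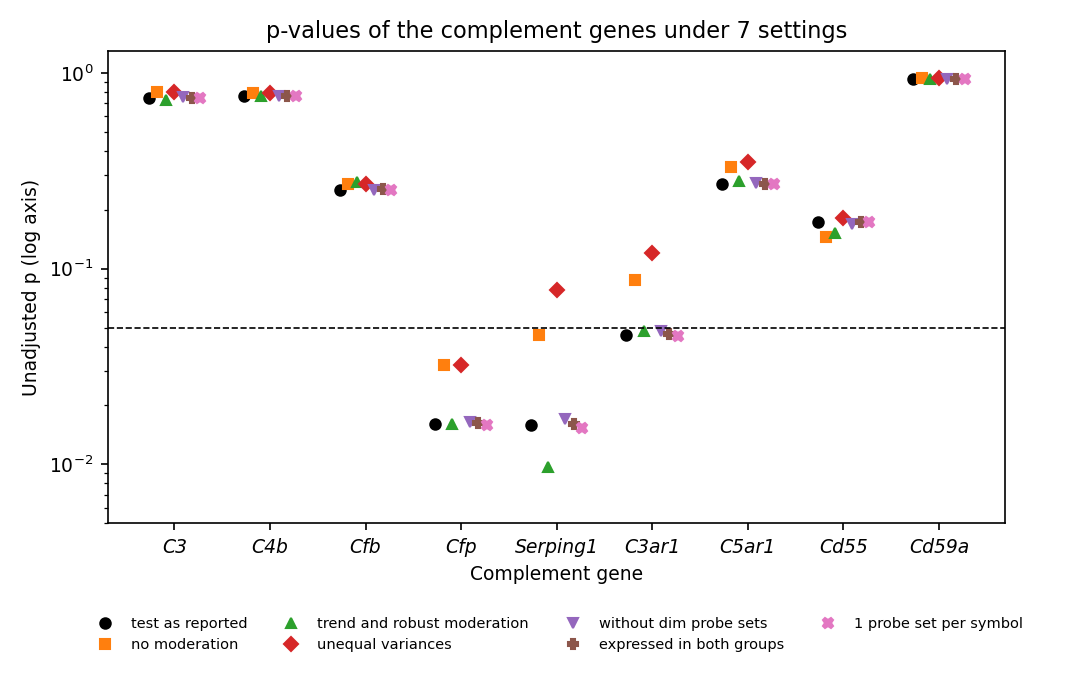
Unadjusted p (vertical log axis) of the 9 complement genes under 7 settings of the test (symbols), with a dashed line at 0.05. Without moderation or with unequal variances, *C3ar1* moves above the line, and with unequal variances *Serping1* does so at 0.0775.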

How the data were processed

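Total RNA of GAS muscles was hybridized to Clariom S Mouse arrays, 4 per group. SST-RMA normalization by the authors used default settings of the Transcriptome Analysis Console software, while the submitters' processing notes name the Affymetrix Expression Console and RMA. The deposited table has 28 columns, annotated on mm10, and gives per group the authors' average (log2), the SD and a flag for expression, written with a decimal comma. The kind of average is not given in the sources used here; if it is not a plain mean, the p-values below are approximate. Columns with the authors' fold changes, p-values and false discovery rates were not used, and 0 columns of single arrays were present.

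The planned test was computed from averages and SDs with limma 3.58.1 in R 4.3.3. The variances of both groups were pooled (6 residual degrees of freedom) and moderated over 22206 probe sets by squeezeVar, whose prior had an SD of 0.284 and 5.85 degrees of freedom. P-values are two-sided, with adjustment after Benjamini and Hochberg over the whole table. An SD of 0 in either group was listed for 21 probe sets, which squeezeVar offsets. The code was tested on simulated data. Labels do not say whether arrays of a group are separate mice beyond the opposite-leg design, so p-values measure the spread between these arrays.

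Each gene was read from its probe set with the highest mean signal. All 9 genes are named. Of the other complement genes, those with an unadjusted p under 0.05, the widest difference of a role and the C1q genes are named, and a few neighbours and copies were added after their values were seen. Members, gene lists, markers and motifs were chosen with earlier results of these data known. A few single genes and motifs of 10 or more letters are not reported here. The alternatives tried were a test without moderation, moderation with a robust trend, unequal variances, leaving out dim probe sets (below 5.715 in log2 signal, the 30th percentile of means), probe sets expressed in both groups, 1 probe set per symbol, a limit of 1.5-fold, an adjusted p under 0.1 and the dimmest probe set of a gene. Arrays have no sequencing depth, and their number limits the precision.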

Additional observations from a re-analysis of the deposited data

How the results depend on the processing

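No paired analysis was possible because the table analysed gives group averages and not single arrays, so neither the legs of a mouse could be paired nor an array left out. The count of the 9 genes with an unadjusted p under 0.05, 3 in the test as reported, was 1 (*Cfp*) with unequal variances, which was the setting that moved it by more than 1.5 times. The count of the 9 genes at 2-fold, 0 as reported, was 1 (*Serping1*) at a limit of 1.5-fold, because that limit is wider. Of the 51 other complement genes, 9 passed as reported and 5 passed both without moderation and with unequal variances (*C1qb*, *Masp2*, *Cd46*, *Thbd* and *Cd93*). The cause of these losses was not tested. The count of the 9 genes with an adjusted p under 0.05 was 0 in every setting run, also with a limit of 0.1. The direction of a complement gene could not change between settings of the test, since all of them use the same deposited averages. For the 9 genes, 51 of the values under other settings kept their side of the threshold and 3 lost it. The number of all probe sets with an unadjusted p under 0.05 ran from 2001 to 2716 over the settings. *Cfb* and *C5ar1* had mean signals close to the limit for dim probe sets.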
